A study of Mus musculus with 8 samples.

Results

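The genes described here are heat shock proteins, their J-protein partners and the chaperonins of the mouse, measured as a ratio between HM-1 and R1, both mouse embryonic stem (ES) cell lines. Members are the genes whose annotated symbol starts with Hsp, Dnaja, Dnajb or Dnajc, or is Tcp1, Cct with a digit or Pfdn with a digit. There were 67 such genes on 107 of 20355 probes, and the proteoglycan Hspg2 was left out. Of these, 61 could be tested, among 14015 features in all, because 3 or more arrays per group measured them. The 6 below that minimum were Hspa1a, Cct5, Dnajb3, Dnajb13, Dnajc5g and Dnajc16. The rule for members used names only and no measured value, but it was set with earlier results of these data known.

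Each of the 8 cDNA arrays held both lines in 2 colours: 4 arrays compared HM-1 with R1 after nocodazole, which takes microtubules apart and so arrests cells in mitosis, and 4 compared the lines untreated. HM-1, known as an Hprt-deficient line, carried Cy5 on nocodazole replicates 1, 2 and 3 and on untreated replicates 1 and 2, and Cy3 on the other 3 arrays, fewer swaps than the design text states. The labels give neither dose nor time of nocodazole, and their protocols speak of animal tissue and a pooled reference that the channel labels do not show. Nor do they say that replicates were separate cultures; the spread behind each p-value may then be technical. Treated and untreated cells never met on an array, so a difference between the groups is a change in how the lines compare, and neither line's own response to the drug can be read from it.

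Each value is a log2 ratio, signed as deposited and centred on each array's median. The labels do not settle which line is the numerator or whether the 3 arrays with HM-1 in Cy3 had been turned, so neither line is called higher. The code that stands for a denominator of 0 had a positive sign on all 5 arrays with HM-1 in Cy5 and a negative sign on all 3 with HM-1 in Cy3, so in the deposited table this code is inverted between the dye labels. Over all features, arrays of the same dye label correlated at 0.016 to 0.227 and arrays of opposite labels at -0.18 to 0.0057 (Pearson's r across features, which are not independent replicates). The reading with those 3 arrays turned stands beside each comparison. A constant offset of each array could be read from its code. With it taken off, 13.7% to 19.3% of the values of those 3 arrays fell on ratios of whole numbers up to 10. With a shifted offset taken off, 4.17% to 4.34% did. Ratios and code of those arrays thus shared an offset. If the code was inverted, the ratios were inverted with it, and the turned reading undoes a turn made before deposit. Whether these arrays were turned was not tested in any other way. The arrays held 17928 to 19445 values. The ratios give no level of expression, so the ES cell label could not be checked against marker levels.

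Heat shock proteins bind unfolded or partly folded proteins. HSP70 proteins work in cycles of ATP hydrolysis that J proteins start through a J domain, and HSP90 proteins take over clients at a late stage of folding. Chaperonins are double rings that enclose a client: Hspd1 with its lid Hspe1 in mitochondria, and the TRiC complex of Tcp1 and the Cct proteins in the cytosol, which folds actin and tubulin handed over by prefoldin. Cytosolic members are induced by heat shock factor at heat shock elements. Members of the endoplasmic reticulum (ER) are induced in the unfolded protein response through ER stress response elements.

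These elements could be read in the promoters of members in the RefSeq table (build GRCm38.p6, 250 bases before to 50 after a start site), which held 56 of the 67 members and 50 of the 61 tested. The ER stress response element, searched as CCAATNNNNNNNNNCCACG on both strands, matched in 3 tested members, Hspa5, Dnajc3 and Hsp90b1, against 0.137% of 27025 genes. The heat shock element, searched on both strands as GAA, 2 bases, TTC, 2 bases and GAA, matched in 4, Hspd1, Hspe1, Hsph1 and Dnajb6, against 0.662% of genes. A match is a description of the sequence and not a bound site. The 3 ER promoters are shown because Hspa5 and Dnajc3 had the smallest p of any member untreated and with nocodazole, and that of Hspe1 because it shows 2 heat shock elements that overlap. They are printed 5′ to 3′ along the gene, with the matches in capitals. They lie at chr2:34771840-34772139 on the plus strand (Hspa5), chr14:118937682-118937981 on the plus strand (Dnajc3), chr10:86705395-86705694 on the minus strand (Hsp90b1) and chr1:55087898-55088197 on the plus strand (Hspe1).
Hspa5: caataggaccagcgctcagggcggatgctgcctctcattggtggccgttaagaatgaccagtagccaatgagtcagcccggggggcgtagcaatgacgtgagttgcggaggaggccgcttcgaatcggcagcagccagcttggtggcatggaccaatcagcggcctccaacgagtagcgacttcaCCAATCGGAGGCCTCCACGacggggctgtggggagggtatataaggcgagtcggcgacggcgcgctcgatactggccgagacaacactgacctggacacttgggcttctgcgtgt
Dnajc3: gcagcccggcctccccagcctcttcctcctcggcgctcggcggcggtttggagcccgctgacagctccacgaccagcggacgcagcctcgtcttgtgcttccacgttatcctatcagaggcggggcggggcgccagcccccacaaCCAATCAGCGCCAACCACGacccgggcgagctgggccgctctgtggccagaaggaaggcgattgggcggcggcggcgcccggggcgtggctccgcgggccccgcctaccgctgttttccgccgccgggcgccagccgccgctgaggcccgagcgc
Hsp90b1: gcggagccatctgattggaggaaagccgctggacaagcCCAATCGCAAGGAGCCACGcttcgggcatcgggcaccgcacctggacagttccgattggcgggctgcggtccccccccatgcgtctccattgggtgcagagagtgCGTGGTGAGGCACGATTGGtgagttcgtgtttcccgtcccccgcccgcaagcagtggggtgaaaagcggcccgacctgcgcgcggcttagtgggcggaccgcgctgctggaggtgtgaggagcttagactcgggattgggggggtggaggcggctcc
Hspe1: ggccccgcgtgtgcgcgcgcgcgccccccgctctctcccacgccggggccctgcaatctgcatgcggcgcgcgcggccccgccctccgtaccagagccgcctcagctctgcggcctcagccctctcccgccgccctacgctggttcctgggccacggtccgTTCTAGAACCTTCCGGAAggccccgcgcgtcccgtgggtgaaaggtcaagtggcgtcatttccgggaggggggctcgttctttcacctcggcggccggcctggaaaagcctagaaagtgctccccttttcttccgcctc
Counted from the start site, the match began at -65 in Hspa5 and at -105 in Dnajc3. Hsp90b1 held one on each strand, at -212 and -107, and Hspe1 an overlapping pair on opposite strands, at -84 and -89. Hspd1 and Hspe1 are adjacent genes in the RefSeq order. Hspd1 also held a pair of matches on opposite strands, at -139 and -144 from 1 of its 2 start sites. Whether the matches of Hspd1 and Hspe1 are 1 shared site was not tested, so the 4 genes may not hold 4 separate sites.

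No member passed the test in any comparison. In limma with Benjamini-Hochberg adjustment over all features, 0 of 61 members and 0% of the 14015 features were called with nocodazole, untreated, and for the difference between them. The smallest adjusted p of a member was 0.999 with nocodazole, 0.734 untreated and 0.996 for the difference. At an unadjusted p under 0.05 there was 1 member with nocodazole (1.64%, against 2.89% of all features), 7 untreated (11.5%, against 6.34%) and 3 for the difference (4.92%, against 3.28%). The 1 with nocodazole was Dnajc3, the 7 untreated were Hspa1b, Hspa4, Hspa5, Hspb2, Dnaja4, Dnajc18 and Cct3, and the 3 for the difference were Hspa1b, Hspa4 and Dnajc3. The median ratio of the members was 0.0056 with nocodazole and -0.03 untreated, against -0.0056 and -0.0048 over all features. The median difference was 0.06, against -0.0018 over all features. On single arrays the median of the members lay between -0.05 and 0.08 with nocodazole and between -0.09 and -0.035 untreated.

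**Figure D1:**
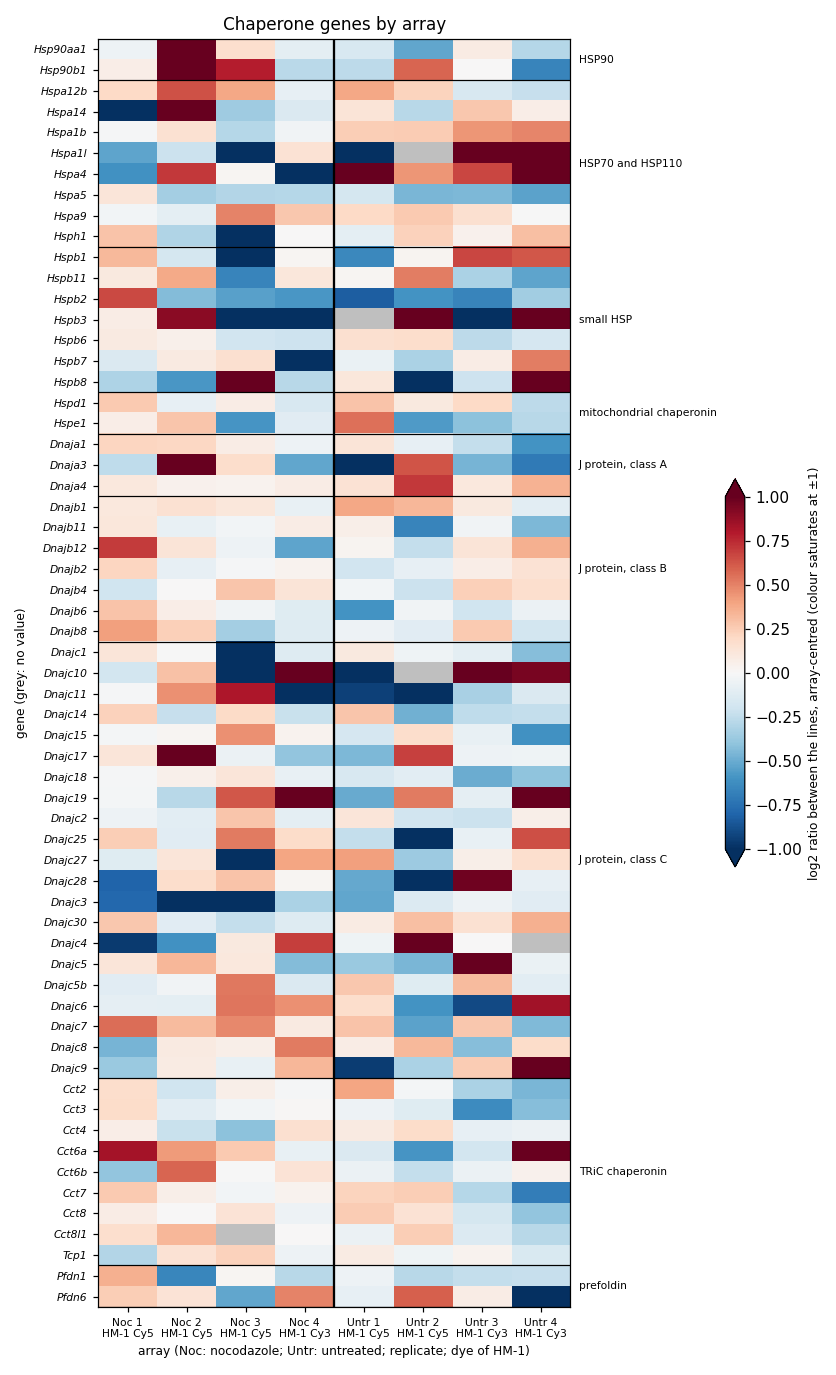
The log2 ratio between the lines of the 61 tested members (rows, grouped by family) on the 4 nocodazole arrays (left) and the 4 untreated arrays (right), with colour saturating at 1 in either direction and grey for a missing value. Most cells are pale, single dark cells such as Dnajc27 at -4.16 on nocodazole replicate 3 stand alone in their rows, and the rows of Dnajc3 and Hspa5 are blue on 8 and 7 arrays.

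With the Cy3 arrays turned, again 0% of features and 0 members were called in the 3 comparisons. At an unadjusted p under 0.05 there were then 3 members with nocodazole (4.92%, against 5.11% of features), 10 untreated (16.4%, against 10.6%) and 2 for the difference (3.28%, against 4.82%). The median of the members was then 0.08 with nocodazole and -0.015 untreated. The 3 with nocodazole were Dnajc3, Dnajc11 and Hspa12b. The smallest adjusted p of a member in limma was then 0.799 with nocodazole (Dnajc11), 0.237 untreated (Hspa1l) and 0.634 for the difference (Dnajc11). Turned fits of single genes are given below only for members chosen by their p with the deposited signs.

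The spread between arrays differed widely among members. It was 0.30 or less (SD over all arrays) for 26 of the 61, among them Hspa5, Hspa9, Hspd1, Tcp1, Cct2, Cct3, Cct4, Cct8, Dnaja1 and Dnajb1, and above 1 for 10, among them Hsp90b1, Dnaja3, Hspb3 and Dnajc10. Over all features, 36.4% had an SD of 0.30 or less and 17.9% one above 1. Of the 784 probe values of the 67 members, 12.0% fell on a ratio between whole numbers no larger than 10 (within 0.0015 in log2), against 14.6% of all values. Hspa1a had 4 such values of 4, Hspa4 9 of 17 and Cct6a 4 of 8, while Hspa5, Hspb2, Hspd1, Hspe1, Hsp90aa1, Hsp90b1 and Dnajc3 had none.

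Among the HSP70 genes, Hspa5 (BiP), the HSP70 of the ER, had the smallest p untreated. Its ratio was 0.12, -0.34, -0.29 and -0.28 on nocodazole replicates 1 to 4, against -0.17, -0.45, -0.45 and -0.53 on untreated replicates 1 to 4. It was negative on every untreated array and on 3 of 4 nocodazole arrays, and replicate 1 of nocodazole was the exception. The group means were -0.20 ± 0.21 with nocodazole and -0.40 ± 0.16 untreated (SD, n = 4 each). The fitted ratio was -0.23 (SE 0.12, adjusted p = 0.999 in limma) with nocodazole and -0.40 (SE 0.11, adjusted p = 0.734 in limma) untreated. Turning the Cy3 arrays gave 0.11 (SE 0.13) with nocodazole and 0.09 (SE 0.12) untreated, on the other side of 0.

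Dnajc3 (P58IPK), a J protein of the ER that works with BiP and inhibits eIF2α kinases, had the smallest p with nocodazole. It stood at -0.78, -1.70, -1.33 and -0.32 on the nocodazole arrays, against -0.52, -0.14, -0.05 and -0.11 on the untreated arrays. All 8 values were negative, and the groups overlapped through nocodazole replicate 4 and untreated replicate 1. The fitted ratio with nocodazole was -0.896 (SE 0.19, adjusted p = 0.999 in limma), and the fitted difference was -0.69 (SE 0.27, adjusted p = 0.996 in limma). Turning the Cy3 arrays gave -0.65 (SE 0.23) with nocodazole and -0.52 (SE 0.32) for the difference. The 2 probes of the gene did not share this pattern. The first was at -1.67, -1.30 and -2.73 on nocodazole replicates 1 to 3, with no value on replicate 4, against -0.21, -0.30, 0.009 and 0.26 untreated. The second was at 0.10, -2.10, 0.07 and -0.32 with nocodazole, against -0.82, 0.03, -0.11 and -0.49 untreated. The groups were apart on the first probe, whose nocodazole values all had HM-1 in Cy5, and overlapped on the second, and the sign on 8 arrays belongs to the mean of the probes and to neither probe alone.

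Some members kept 1 sign within a group. With nocodazole 3 of 60 members measured on all 4 arrays did so (5% of them, against 10.1% of features): Dnajc3, Dnaja4 and Dnajc7. Untreated it was 12 of 57 (21.1%, against 13.7%): Hspa1b, Hspa4, Hspa5, Hspb2, Dnaja4, Dnajb6, Dnajc3, Dnajc11, Dnajc18, Dnajc30, Cct3 and Pfdn1. On all 8 arrays 2 of 56 did, Dnajc3 and Dnaja4 (3.57%, against 0.839%). Once the Cy3 arrays were turned, 8 of 60 kept 1 sign with nocodazole (13.3%, against 15.8%) and 10 of 57 untreated (17.5%, against 20.9%).

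**Figure D2:**
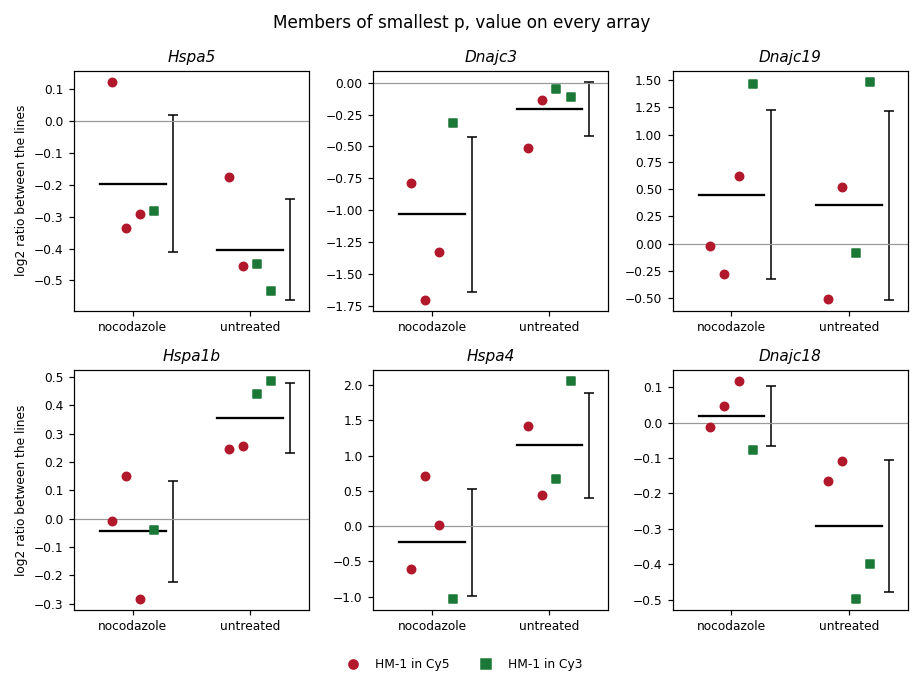
The log2 ratio between the lines for the 3 members of smallest p in each of the 3 comparisons (6 members in all). Nocodazole is left and untreated right, with HM-1 in Cy5 as circles and in Cy3 as squares. Horizontal lines are group means and error bars the SD (n = 4); the untreated values of Hspa5 are all below 0, those of Hspa1b lie between 0.25 and 0.49, and the nocodazole values of Hspa1b lie between -0.28 and 0.15.

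Hspa1b, an HSP70 that heat strongly induces, was at -0.008, 0.15, -0.28 and -0.039 with nocodazole, against 0.25, 0.26, 0.44 and 0.49 untreated. The groups did not overlap, which held for 2 of 56 members, Hspa1b and Dnajc18 (3.57%, against 2.05% of features). The fitted value was 0.36 (SE 0.10, adjusted p = 0.758 in limma) untreated and the fitted difference -0.37 (SE 0.15, adjusted p = 0.996 in limma). Turning the Cy3 arrays gave -0.11 (SE 0.14) and -0.013 (SE 0.21). Hspa1a, its neighbour and near-identical copy, had 4 values, -1.34 and 2.94 with nocodazole and -1.65 and 0.50 untreated, and was not tested; a cDNA probe may not tell the copies apart. Hspa1l, the testis form next to them, ranged from -1.71 to 0.15 with nocodazole and from -1.57 to 1.94 untreated.

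Hspa4, an HSP110-type exchange factor that recharges HSP70, had the smallest p for the difference. It was at -0.61, 0.71, 0.022 and -1.03 with nocodazole, against 1.42, 0.44, 0.66 and 2.06 untreated. The untreated values were all positive and the nocodazole values lay on both sides of 0, with nocodazole replicate 2 inside the untreated range. The fitted difference was -1.42 (SE 0.53, adjusted p = 0.996 in limma), and 0.28 (SE 0.76) with the Cy3 arrays turned. Its 3 probes were seldom measured together. Untreated replicate 1 rested on the first probe alone, and untreated replicate 4 held 2.77 on the second and 1.35 on the third. Nocodazole replicate 3 held -2.70, 1.77 and 0.995 on the 3 probes.

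The other HSP70 and HSP110 members lay near 0 or were widely spread. Hspa9 (mortalin), the mitochondrial HSP70, averaged 0.16 ± 0.27 with nocodazole and 0.155 ± 0.11 untreated (SD, n = 4 each, 4 probes). Hsph1 (HSP110), a second exchange factor, was at 0.28, -0.30, -1.28 and 0.001 with nocodazole, against -0.10, 0.23, 0.041 and 0.30 untreated, so nocodazole replicate 3 set its spread. Hspa14, a ribosome-bound HSP70, ranged from -1.84 to 2.16 with nocodazole and from -0.27 to 0.27 untreated. Hspa12b, an atypical HSP70 of endothelial cells, averaged 0.29 ± 0.30 with nocodazole and 0.06 ± 0.30 untreated (SD, n = 4 each).

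The 2 HSP90 genes among the members, which need not be the whole family, both had their highest value on nocodazole replicate 2. Hsp90aa1, the inducible cytosolic form, was at -0.05, 2.35, 0.17 and -0.10 with nocodazole, against -0.16, -0.52, 0.08 and -0.28 untreated. Hsp90b1 (GRP94), the form of the ER, was at 0.07, 5.60, 0.79 and -0.27 with nocodazole, against -0.27, 0.58, 0.003 and -0.66 untreated. Outside that 1 array both groups straddled 0. For Hsp90aa1 the second probe carried the high value, at 4.27 on that array, where the first was at 0.44. Dnaja3 (Tid1), a mitochondrial J protein, was also extreme on this array, at 4.46 against -0.52 to 0.17 on the other nocodazole arrays.

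The small heat shock proteins hold unfolded clients without using ATP. Hspb2, a muscle form, was at 0.66, -0.43, -0.54 and -0.58 with nocodazole, against -0.82, -0.60, -0.66 and -0.35 untreated. It was negative on 7 arrays and positive on nocodazole replicate 1, as was Hspa5; this held for 2 of 56 members (3.57%, against 2.61% of features). Cryab, the αB-crystallin gene next to Hspb2 in the RefSeq order, shared each sign. It was at 1.19, -1.08, -1.57 and -1.08 with nocodazole, against -1.11, -0.85, -1.02 and -1.17 untreated. Without nocodazole replicate 1, 3 of 61 members were at an unadjusted p under 0.05 in limma with nocodazole: Dnajc3, Hspa5 and Hspb2. Of all features 696 of 14123 were (4.93%), and 0 features passed the adjusted threshold. Hspa5 and Hspb2 were named here for their positive value on the array left out, so their lower p without it was fixed in advance. Over all features, 2.61% were positive on nocodazole replicate 1 and negative on the other arrays, and 0.839% had 1 sign on all 8 arrays. Whether the sign or dye label of nocodazole replicate 1 is right was not tested.

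**Figure D3:**
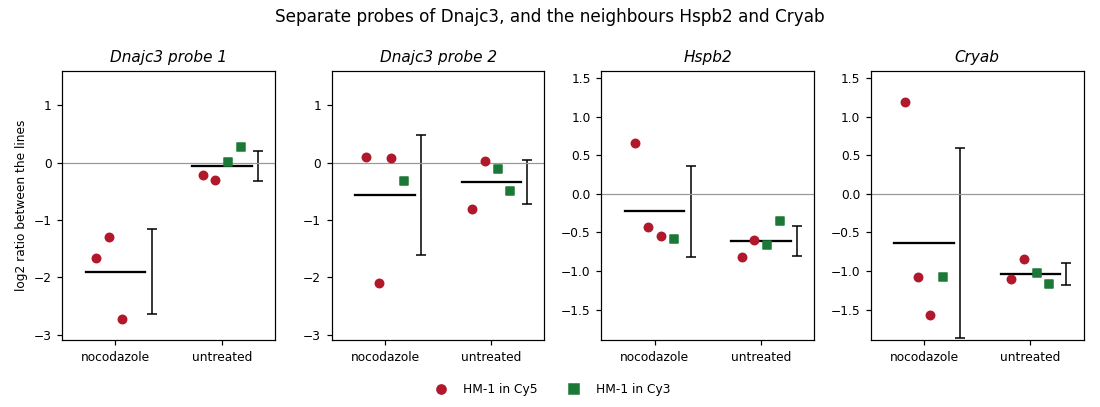
The log2 ratio between the lines for each of the 2 probes of Dnajc3, and for the adjacent genes Hspb2 and Cryab, nocodazole left and untreated right; circles have HM-1 in Cy5, squares in Cy3, lines are means and error bars the SD. The first probe of Dnajc3 separates the groups and the second does not, while Hspb2 and Cryab are both above 0 on nocodazole replicate 1 alone, at 0.66 and 1.19.

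Hspb1 (HSP25), the widely expressed small heat shock protein, was at 0.32, -0.18, -1.25 and 0.017 with nocodazole, against -0.64, 0.029, 0.67 and 0.62 untreated, with no common sign in either group. Hspb6 stayed between -0.21 and 0.09 with nocodazole and between -0.26 and 0.17 untreated. Hspb3 ranged from -1.95 to 0.90 with nocodazole and from -3.31 to 2.45 untreated. Hspb7, Hspb8 and Hspb11, the last also known as the ciliary transport protein IFT25, averaged between -0.29 and -0.013 with nocodazole and between -0.08 and 0.05 untreated, with SDs between 0.35 and 0.88.

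Some markers of other cells had the signs of Hspa5 and Hspb2, and others did not. Of markers with a value on every array, 3 of 11 endoderm, 4 of 14 feeder fibroblast and 1 of 2 trophectoderm markers were positive on nocodazole replicate 1 and negative on the other 7 arrays. The endoderm markers, 12 tested of 14 annotated, had a median of 0.07 on nocodazole replicate 1 and between -0.59 and -0.17 on the other nocodazole arrays, against -0.59 to -0.03 untreated. Their fitted ratios were negative for 10 of 12 with nocodazole and for 8 of 12 untreated, against 7200 and 7167 of the 14015 features, and with the Cy3 arrays turned for 6 and 5. Pth1r was at 0.83, -0.61, -0.37 and -0.72 with nocodazole, against -0.72, -0.54, -0.68 and -0.79 untreated. Col4a1 had the opposite signs on the nocodazole arrays, at -1.27, 0.65, 0.16 and 0.10. The feeder fibroblast markers, 18 tested, had a median of 0.0065 on nocodazole replicate 1, where 9 of 18 were positive, and -0.22, -0.35 and 0.01 on nocodazole replicates 2 to 4, against -0.19 to -0.08 untreated. They had 14 of 18 negative fitted ratios with nocodazole and 11 of 18 untreated, and 9 in each group with the Cy3 arrays turned. S100a4 was at 0.64, -0.34, -0.87 and -0.59 on the nocodazole arrays and negative on all untreated arrays, while Timp1 was at -1.28, 0.43, -0.54 and 0.63 on the nocodazole arrays. Of the trophectoderm markers only Krt8 and Ascl2 were tested. Krt8 was at 1.41, -0.93, -1.26 and -1.16 with nocodazole, against -0.66, -0.70, -1.22 and -1.35 untreated. Ascl2 was at 0.19, 0.14, 0.17 and -0.12 with nocodazole, against 0.225, 0.10, -0.24 and -0.30 untreated. Neither the part of such cells in the ratios of Hspa5 and Hspb2 nor the sign or dye label of nocodazole replicate 1 was tested. In bulk RNA, fewer cells of a type and less RNA per cell cannot be told apart. The pluripotency markers, 9 tested of 13 annotated, had positive fitted ratios for 6 with nocodazole and 8 untreated, and for 3 and 6 with the Cy3 arrays turned. Esrrb had the smallest p among them, with nocodazole (adjusted p = 0.999 in limma). It was at 2.21, 2.86 and 1.01 on nocodazole replicates 2 to 4, with no value on replicate 1, against 0.26, 0.15, -0.14 and -0.008 untreated.

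Of 21 tested genes of ER folding and the unfolded protein response, Dnajc3 among them, 11 had negative fitted ratios with nocodazole and 14 untreated. With the Cy3 arrays turned 9 were negative in each group. Over all 14015 features, 7200 and 7167 were negative, and 6984 and 6910 when turned. None was called in limma. Of the 21, 2 with nocodazole and 3 untreated were at an unadjusted p under 0.05, against 2.89% and 6.34% of all features. The 2 with nocodazole were Creld2 and Dnajc3, and Dnajc3 had already been singled out as the member of smallest p there. Their median was 0.07 on nocodazole replicate 1 and between -0.36 and -0.11 on the other nocodazole arrays, against -0.25 to -0.14 untreated; over all tested features the median of an array lay between -0.013 and 0.022. Selenos, a membrane protein of ER-associated degradation, averaged -0.11 ± 0.14 with nocodazole and -0.32 ± 0.23 untreated (SD, n = 4 each). Creld2, an ER protein induced by stress, was positive on 7 of 8 arrays, at 0.61 ± 0.79 with nocodazole and 0.905 ± 0.64 untreated (SD, n = 4 each). Among the ER members, Dnajb11 (ERdj3), a BiP partner, was at 0.11, -0.08, -0.025 and 0.07 with nocodazole, against 0.06, -0.66, -0.037 and -0.45 untreated. Dnajc10 (ERdj5), a J protein with reductase activity, ranged from -2.09 to 1.47 with nocodazole and from -2.50 to 2.54 untreated.

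Of the J proteins of classes A and B, which carry the J domain at their start, Dnaja1, the main cytosolic partner of HSP70, was at 0.21, 0.21, 0.08 and -0.05 with nocodazole, against 0.13, -0.08, -0.24 and -0.59 untreated. Dnajb1 (HSP40), the heat-inducible partner, was at 0.10, 0.15, 0.11 and -0.07 with nocodazole, against 0.39, 0.34, 0.10 and -0.10 untreated. In both genes replicate 4, with HM-1 in Cy3, held the lowest value of each group. Dnajb6, a suppressor of protein aggregation, was at 0.28, 0.07, -0.039 and -0.12 with nocodazole, against -0.60, -0.034, -0.20 and -0.06 untreated, over 5 probes.

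Dnaja4, the second gene of 1 sign on 8 arrays, lay close to 0 with nocodazole, at 0.11, 0.042, 0.035 and 0.08, against 0.14, 0.71, 0.11 and 0.35 untreated. Its sign too belonged to the mean of 2 probes, the first of which was between -0.10 and 0.31 with nocodazole and between -0.14 and 0.33 untreated. Dnajb2, a neuronal J protein, and Dnajb4, an HSP40 relative, averaged 0.039 ± 0.13 and 0.05 ± 0.20 with nocodazole, against -0.016 ± 0.15 and 0.042 ± 0.20 untreated (SD, n = 4 each). Dnajb8, of the testis, and Dnajb12, an ER membrane protein, averaged 0.04 ± 0.34 and 0.06 ± 0.51 with nocodazole, against -0.02 ± 0.19 and 0.07 ± 0.25 untreated (SD, n = 4 each). The untested Dnajb3 and Dnajb13, both of the testis, had 4 and 5 values in all.

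Class C J proteins share the J domain alone and serve many compartments; 21 of 23 were tested. Dnajc18 was at -0.012, 0.048, 0.12 and -0.08 with nocodazole, against -0.16, -0.11, -0.50 and -0.40 untreated, so the groups did not overlap. Within each group the Cy3 arrays were the lowest. The fitted ratio untreated was -0.29 (SE 0.08, adjusted p = 0.758 in limma), and 0.16 (SE 0.11) with the Cy3 arrays turned. Dnajc19 (TIM14), which drives protein import into mitochondria, was at -0.017, -0.27, 0.62 and 1.46 with nocodazole, against -0.51, 0.52, -0.09 and 1.48 untreated. Its fitted ratio with nocodazole was 0.69 (SE 0.33, adjusted p = 0.999 in limma), and -0.55 (SE 0.34) with the Cy3 arrays turned. The second probe carried its high values, 2.86 on nocodazole replicate 4 and 2.56 on untreated replicate 4, where the first was at 0.07 and 0.41.

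Dnajc7 (TPR2), which passes clients between HSP90 and HSP70, was at 0.56, 0.32, 0.48 and 0.09 with nocodazole, all positive, against 0.29, -0.53, 0.27 and -0.44 untreated. Dnajc11, a protein of the mitochondrial membranes, was at -0.014, 0.45, 0.81 and -1.14 with nocodazole, against -0.93, -1.56, -0.32 and -0.14 untreated, all negative. Dnajc30, a mitochondrial protein, averaged -0.05 ± 0.22 with nocodazole and 0.22 ± 0.13 untreated (SD, n = 4 each). Dnajc2 (zuotin), a ribosome-bound J protein, stayed within -0.10 and 0.28 with nocodazole and -0.21 and 0.12 untreated. Dnajc9, a histone co-chaperone, ranged from -0.37 to 0.33 with nocodazole and from -0.95 to 2.53 untreated, and Dnajc27 from -4.16 to 0.40 with nocodazole and from -0.36 to 0.41 untreated. The synaptic vesicle protein Dnajc5 and the clathrin-uncoating Dnajc6 averaged 0.033 ± 0.33 and 0.20 ± 0.34 with nocodazole, against 0.027 ± 0.67 and -0.12 ± 0.79 untreated (SD, n = 4 each). Of the others, Dnajc1, Dnajc4, Dnajc5b, Dnajc8, Dnajc14, Dnajc15, Dnajc17, Dnajc25 and Dnajc28 had values on both sides of 0 in each group.

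In mitochondria the chaperonin pair showed small ratios. Hspd1 (HSP60) was at 0.26, -0.08, 0.07 and -0.16 with nocodazole, against 0.29, 0.10, 0.20 and -0.26 untreated. Hspe1 (HSP10), its lid, was at 0.07, 0.28, -0.59 and -0.11 with nocodazole, against 0.55, -0.56, -0.41 and -0.28 untreated. The neighbours differed in sign on nocodazole replicates 2 and 3 and on untreated replicates 2 and 3. Of 13 tested mitochondrial partners and proteases, 7 had negative fitted ratios with nocodazole and 8 untreated, against 7200 and 7167 of the 14015 features. With the Cy3 arrays turned 8 and 7 were negative, against 6984 and 6910. None was called in limma, and 0 and 1 were at an unadjusted p under 0.05, against 2.89% and 6.34% of features. The protease subunit Afg3l2 was the 1, at 0.044 ± 0.14 with nocodazole and -0.35 ± 0.33 untreated (SD, n = 4 each).

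Each subunit of TRiC has a fixed place in the ring. Tcp1 was at -0.29, 0.15, 0.23 and -0.048 with nocodazole, against 0.08, -0.042, 0.034 and -0.15 untreated, over 3 probes. Cct2 was at 0.18, -0.20, 0.06 and -0.014 with nocodazole, against 0.39, -0.019, -0.32 and -0.46 untreated. Cct3 was at 0.19, -0.10, -0.029 and 0.013 with nocodazole, against -0.049, -0.12, -0.63 and -0.43 untreated. In Cct2 and Cct3 the lowest values were those of the untreated arrays with HM-1 in Cy3.

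Cct4, Cct7 and Cct8 had the same split of the untreated arrays by dye. Cct4 was at 0.07, -0.23, -0.41 and 0.16 with nocodazole, against 0.09, 0.18, -0.08 and -0.06 untreated. Cct7 was at 0.26, 0.06, -0.028 and 0.035 with nocodazole, against 0.23, 0.25, -0.29 and -0.69 untreated. Cct8 was at 0.07, 0.002, 0.13 and -0.05 with nocodazole, against 0.25, 0.15, -0.17 and -0.39 untreated. Untreated, both arrays with HM-1 in Cy5 lay above both with Cy3 in Cct2, Cct3, Cct4, Cct7 and Cct8 (as in 26.8% of features), but not in Tcp1 or Cct6a. Cct6a was at 0.83, 0.43, 0.26 and -0.07 with nocodazole, against -0.14, -0.59, -0.19 and 0.99 untreated, with 4 whole-number ratios among 8 values.

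**Figure D4:**
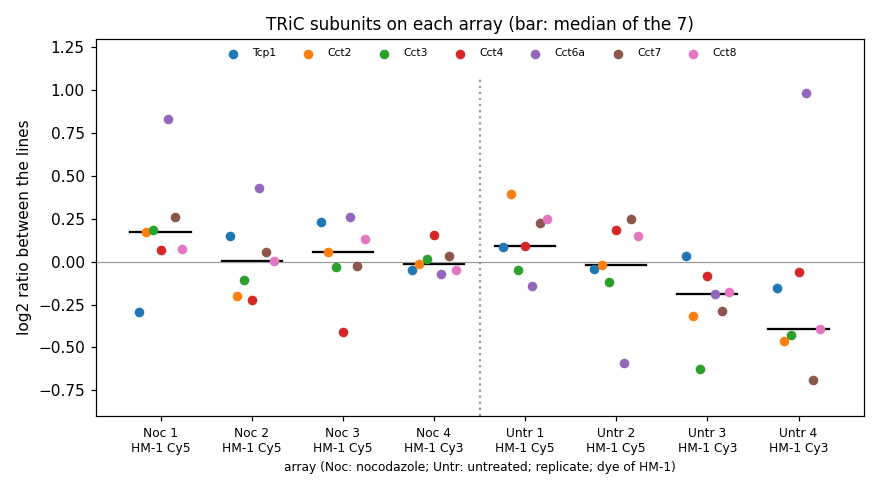
The log2 ratio between the lines for 7 TRiC subunits (coloured points) and their median (bar) on each array, nocodazole left and untreated right, with the dye of HM-1 under each array. The medians are 0.09 and -0.019 on the untreated arrays with HM-1 in Cy5 and -0.19 and -0.39 on those with HM-1 in Cy3, against -0.014 to 0.18 with nocodazole.

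Over all members this order was no more frequent than elsewhere. Untreated, both Cy5 arrays lay above both Cy3 arrays in 14 of 57 members (24.6%, against 26.8% of features), and below them in 13 (22.8%, against 21.1%). Besides the 5 Cct genes the 14 held Cct8l1, Dnaja1, Dnajb1, Dnajc1, Dnajc18, Hspa9, Hspa12b, Hspb6 and Hspb11. Turned, the 7 TRiC subunits had a median fitted ratio of 0.08 with nocodazole and 0.22 untreated, against -0.042 and -0.043 with the deposited signs. Of the 7, 6 were then positive in each group, where all features had 7031 and 7105 of 14015. Cct2, Cct7 and Cct8 were then among the members at an unadjusted p under 0.05 untreated.

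Of the remaining chaperonin genes, Cct6b, the testis form of Cct6a, was at -0.40, 0.58, -0.0027 and 0.14 with nocodazole, against -0.06, -0.24, -0.06 and 0.047 untreated, over 3 probes. Cct8l1 was at 0.17, 0.33 and 0.005 with nocodazole (replicates 1, 2 and 4), against -0.06, 0.24, -0.14 and -0.28 untreated. Cct5 was positive on every nocodazole array, at 0.53, 0.76, 2.07 and 1.12, but had a single untreated value, -0.46, and was not tested. Cct6a and Cct6b are paralogues, and whether their probes share signal was not tested.

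Prefoldin, which captures nascent actin and tubulin for TRiC, was represented by 2 subunits under the member names. Pfdn1 was at 0.35, -0.65, 0.018 and -0.27 with nocodazole, against -0.05, -0.27, -0.24 and -0.23 untreated, all negative. Pfdn6 was at 0.24, 0.14, -0.52 and 0.49 with nocodazole, against -0.08, 0.60, 0.07 and -1.0 untreated. Vbp1, the prefoldin subunit of another name, averaged -0.10 ± 0.17 with nocodazole and -0.07 ± 0.13 untreated (SD, n = 4 each). Among 9 tested partners of TRiC and prefoldin and tubulin cofactors, 7 had negative fitted ratios with nocodazole and 3 untreated. With the Cy3 arrays turned 6 and 3 were negative, where all features had 6984 and 6910 of 14015. None was called in limma, and 0 and 1 were at an unadjusted p under 0.05, against 2.89% and 6.34% of features. The 1 was Pdrg1, of a prefoldin-like complex, at 0.0028 ± 0.17 with nocodazole and -0.34 ± 0.09 untreated (SD, n = 4 each). Of 18 tested actins and tubulins, 9 were negative with nocodazole and 13 untreated, and 4 and 7 with the Cy3 arrays turned. None was called in limma, and 0 and 3 were at an unadjusted p under 0.05. Over all 14015 features, 7200 and 7167 were negative, 6984 and 6910 when turned, and 2.89% and 6.34% were at an unadjusted p under 0.05. Tubb6 averaged -0.12 ± 0.16 with nocodazole and -0.38 ± 0.27 untreated, and Tubb4a -0.48 ± 0.49 with nocodazole and 1.04 ± 0.83 untreated (SD, n = 4 each).

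The regulators of the heat shock response and the cytosolic co-chaperones had array medians between -0.06 and 0.11 with nocodazole and between -0.11 and 0.003 untreated. Of 23 tested, 14 were negative with nocodazole and 17 untreated, against 7200 and 7167 of the 14015 features. None was called in limma, and 0 and 1 were at an unadjusted p under 0.05, against 2.89% and 6.34% of features. The 1 was Cryab. The exchange factor Bag5 averaged 0.15 ± 0.73 with nocodazole and 0.56 ± 0.31 untreated (SD, n = 4 each). The median fitted ratio of the list was -0.02 with nocodazole and -0.06 untreated, and with the Cy3 arrays turned 0.026 and 0.0065. Turned, 10 were negative in each group, against 6984 and 6910 of the features.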

How the data were processed

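The deposited table held 1 log2 ratio per probe and array for 20355 probes. Per the labels' protocols, cDNA made from total RNA was coupled to Cy3 or Cy5. What the authors used for scanning, background and normalization is not given in the sources used here. That the deposited scale is log2 follows from its values; which line is the numerator stays unknown. Values beyond 10 in size (positive with HM-1 in Cy5, negative with HM-1 in Cy3), a code for a denominator of 0 (74 to 203 per array, 4 among member probes), were set to missing. Symbols came from the platform annotation (1 for 14030 probes, several for 5, none for 6320), updated through the RefSeq gene table (GRCm38.p6), which matched 13994 probes. Probes of 1 symbol were averaged and arrays centred on their median. The test was limma 3.58.1 (R 4.3.3; lmFit and eBayes) over all features and 8 arrays, with a coefficient per group and a term for the dye of HM-1, two-sided, Benjamini-Hochberg adjusted, threshold 0.05. Fitted values are given for the 3 members of smallest p in each comparison; array values are given for those and for core chaperones, and other genes that were singled out were chosen after their values were seen (Col4a1 and Timp1 among them). Most examples of the other lists are genes of small p in their list. Vbp1 was named as a further prefoldin subunit and Ascl2 as the other tested trophectoderm marker, not for their p. Members and lists were chosen with earlier results of these data known. The number of arrays limits the precision.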

Additional observations from a re-analysis of the deposited data

Results flagged for a closer look

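Of 138 groups of 4 arrays examined, 9 had 1 array standing far off, by Dixon's ratio of gap to range, where chance gives about 1 in 20 groups, or 6.9. The groups were single genes and medians over families that hold those genes, so they were not independent. All 9 of the far-off values were on nocodazole arrays. On nocodazole replicate 1 these were Hspa5 at 0.12, against -0.34 to -0.28 on the other nocodazole arrays, and Hspb2 at 0.66, against -0.58 to -0.43. On nocodazole replicate 2 they were Hsp90aa1 at 2.35, against -0.10 to 0.17, Dnaja3 at 4.46, against -0.52 to 0.17, and the median of the 2 HSP90 members, Hsp90aa1 among them, at 3.98, against -0.18 to 0.48. On nocodazole replicate 3 they were Dnajc2 at 0.28, against -0.10 to -0.05, Dnajc5b at 0.52, against -0.14 to -0.04, Dnajc15 at 0.46, against -0.02 to 0.03, and Dnajc27 at -4.16, against -0.12 to 0.40. The values of nocodazole replicate 3 also had the widest spread of any array (SD 1.23, against 0.74 to 0.87 on the other seven).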

How the results depend on the processing

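In 19 alternatives to the settings above, the number of called features stayed at 0 untreated and for the difference, and with nocodazole in all but 1. When values on all 8 arrays were required, 1 feature with no symbol, and no member, was called with nocodazole (adjusted p = 0.032 in limma). With single arrays left out the count was 0 to 0 in each comparison. The members' median with nocodazole was 0.0751 with the Cy3 arrays turned, and -0.013 to 0.05 with single arrays left out. Untreated it was -0.047 to 0.0069, positive only without untreated replicate 2, and for the difference 0.0055 to 0.10. Members at an unadjusted p under 0.05 numbered 1 to 3 with nocodazole, 4 to 10 untreated and 0 to 4 for the difference over all alternatives, beside 301 to 764, 698 to 1484 and 342 to 676 of all features. With nocodazole there were 3 without nocodazole replicate 1 (696 features) or 4 (764 features) and 2 without untreated replicate 3 (402 features); untreated 4 without untreated replicate 2 or 4; for the difference 0 without nocodazole replicate 3 and 1 without untreated replicate 1, 2 or 3. With the Cy3 arrays turned these fitted ratios changed sign: Dnajc19 (-0.55) and Hspa5 (0.11) with nocodazole, Hspa5 (0.0885), Hspa1b (-0.11) and Dnajc18 (0.16) untreated, and the difference of Hspa4 (0.28). The cause was not tested. The fitted values of Dnajc3, whose 2 probes did not share a pattern, changed sign in none of the 19. Nor did the difference of Hspa1b, but it was close to 0 with the Cy3 arrays turned, at -0.013 (SE 0.21). Hspa4 had no value when whole-number ratios were set to missing. Deviations of same-numbered nocodazole and untreated arrays correlated at 0.14, 0.04, -0.05 and 0.14 for replicates 1 to 4. Replicate 3 joins opposite dye labels and the others the same label. These values therefore cannot tell whether the replicate numbers pair the arrays. With a replicate block the count of called features was 0 in each comparison. Without intensities the brightness behind a ratio is unknown, which limits what the dim probes can show.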
